A study of Scophthalmus maximus with 8 samples.

Results

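The regions described here held a peak of accessible chromatin at the phylotypic stage (3dpf), before metamorphosis (15dph) and at its climax (23dph) of turbot development, and none after metamorphosis (37dph). They were chosen by the presence or absence of a called peak in the 4 lists of the series. Peaks of all lists that overlapped by at least 1 bp were joined into 114193 regions, and 6358 of them (5.57%, 95% Wilson interval 5.44 to 5.70%) had this order of states. A region with a peak at a stage is called open at that stage. Absence of a peak from a list does not show that the chromatin was closed there.

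Turbot (Scophthalmus maximus) is a flatfish. Its larva swims upright with an eye on each side, and at metamorphosis 1 eye migrates across the head, the pigment becomes asymmetric and the juvenile settles on the bottom, a change that is under the control of thyroid hormones. Accessible chromatin marks DNA that is not packed by nucleosomes, mostly promoters, which lie at gene starts, and enhancers, which act on genes from a distance. Enhancers are often used at some stages or in some cell types only, while many promoters stay accessible throughout.

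The assay was ATAC-seq, in which the Tn5 transposase cuts accessible DNA and adds sequencing adapters to it. The 8 samples were 2 biological replicates at each of 4 stages, and 1 list of peaks serves both replicates of a stage. Only the samples of 3 days post fertilization (3dpf) hold all parts of the body. Those of 15, 23 and 37 days post hatching (15dph, 23dph and 37dph) lack the rear part, counted from the cloaca. The authors also digested the tissue with collagenase for longer at each later stage, so stage and digestion time cannot be told apart. The labels name no treatment, allele or sorted cell type, and a peak that disappears from a list cannot be told apart from a cell type that became rarer. The 23dph list carries another day number in its name and was assigned by the labels. The 3dpf list held 94714 peaks and the 15dph list 57611. The 23dph list held 47853 and the 37dph list 46248, all with an Irreproducible Discovery Rate (IDR) of at most 0.1. IDR estimates how often peaks of the same rank or better fail to recur between replicates. Since each stage has 1 list, no error between replicates and no test could be given, and the lists do not hold the read depth behind them, which was not analysed here. The Wilson intervals cover counting error only, and regions that neighbour each other are not independent.

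Of the 34812 regions open at 3dpf, 15dph and 23dph, the 6358 without a 37dph peak made up 18.3% (17.9 to 18.7%), and the other 28454 were open at all 4 stages. The rule used that contrast, and the share is given as the background to the shares below. The number depended on the peak limits. It was 2065 when the 3 earlier lists were limited to an IDR of at most 0.01 and 10527 when the 37dph list alone was. It was 3714 with the top 50% of each list and 3780 with lists of equal length. Among all 46194 regions open at 23dph, 29.6% had no 37dph peak. The earlier histories of these regions are calls from the lists that chose them, and their 23dph ranks were not compared. The share without a 37dph peak differed between 4 such histories. It was 78.3% (77.0 to 79.5%) in the 3926 regions with no peak before 23dph and 72.8% (71.2 to 74.2%) in the 3424 also open at 3dpf but not at 15dph. It was 43.3% (41.8 to 44.8%) in the 4032 that had opened by 15dph but had no peak at 3dpf. Regions open at all 3 earlier stages therefore had the lowest share without a 37dph peak of the 4 histories, and, being the most frequent, they still supplied the most such regions (6358 of 13667).

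A missing 37dph peak was the most frequent single gap. Of the 12358 regions open at exactly 3 of the 4 stages, 51.4% (6358) lacked the 37dph peak only. A further 22.5% (2780) lacked the 23dph peak, 18.5% (2287) lacked the 3dpf peak and 7.55% (933) lacked the 15dph peak. The 37dph list was the shortest, and these shares were not computed with lists of equal length. The regions covered 2552579 of the 37378531 bp of the joined atlas (6.83%). They had a median width of 362 bp, with the middle range between quartiles from 264 to 492 bp, against 309 bp (231 to 474 bp) in the regions open at all 4 stages. Nearly all (6084, 95.7%) held exactly 1 peak at each of the 3 stages, and 6356 lay on the numbered chromosomes.

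The peaks of these regions stood lower in each earlier list than those of the always-open regions, and the distance was smallest at 3dpf. Peaks were ranked within each list by the −log10 p of the peak caller, so that the strongest peak has a percentile near 0 and the weakest has 100. The median percentile of the regions without a 37dph peak was 35.2 (3dpf), 56.1 (15dph) and 66.6 (23dph). In the regions open at all 4 stages it was 22.6 (3dpf), 26.0 (15dph), 31.3 (23dph) and 32.9 (37dph). The lists shrink from stage to stage, so a percentile can grow while a peak keeps its place from the top. Counted in peaks from the top of the list, the median position of the regions without a 37dph peak was 33332 (3dpf), 32315 (15dph) and 31848 (23dph), and hardly moved. That of the always-open regions was 21391 (3dpf), 14997 (15dph), 14985 (23dph) and 15197 (37dph), and so lay nearer to the top after 3dpf. By position, 44.9% of the regions without a 37dph peak lay further from the top at 23dph than at 3dpf, against 28.4% of the always-open ones. A position cannot exceed the length of its list, so regions beyond position 47853 at 3dpf had to lie nearer to the top at 23dph. The upper quartile of positions at 3dpf was 53777 without a 37dph peak and 41938 in the always-open regions. List length thus sets a part of these medians and shares too. By percentile the shares were 83.0 and 65.7%. Between 15dph and 23dph the shares by position were alike, at 46.0 and 48.9%. These values come from the lists that chose the regions and are given as a description.

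**Figure D1:**
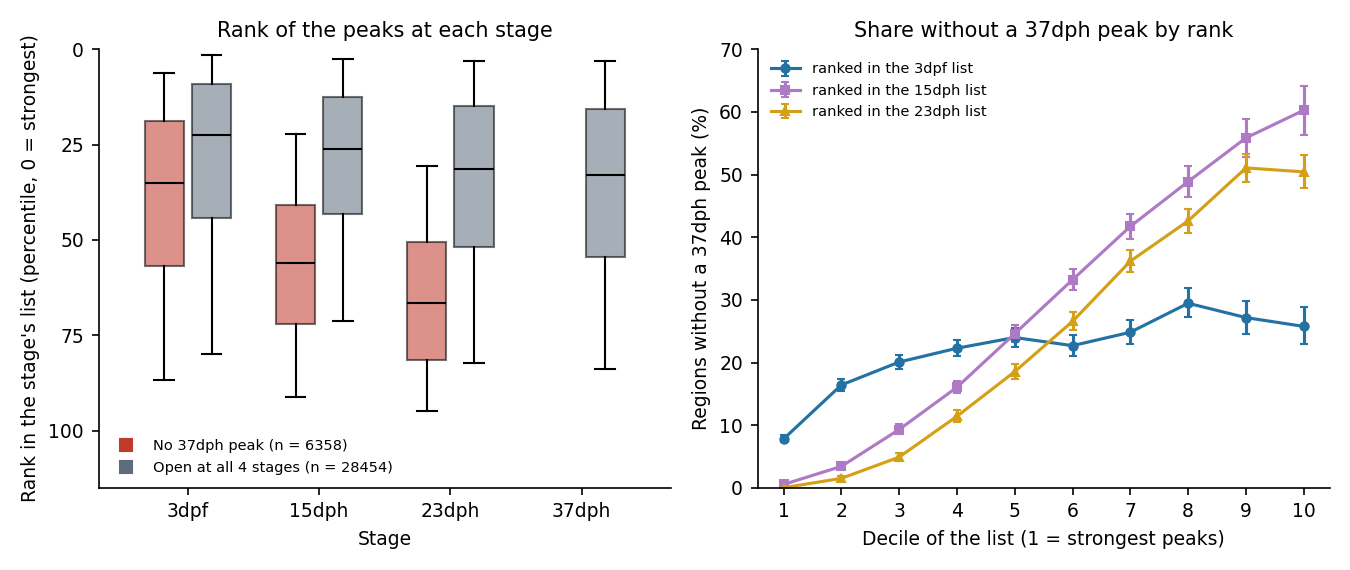
Left, rank percentile of the strongest peak per region in its own list (vertical axis, 0 at the top is the strongest peak; the lists differ in length) at each stage for regions without a 37dph peak (red) and regions open at all 4 stages (grey). Boxes span the quartiles, the line is the median and whiskers reach the 5th and 95th percentiles of regions. Right, percent of regions open at 3dpf, 15dph and 23dph without a 37dph peak (vertical axis) in each decile of the 3 earlier lists (10 equal parts, strongest first), with 95% Wilson intervals. The share climbs to 50.4% in the weakest decile of the 23dph list and to 60.3% in that of the 15dph list, but stays between 7.80 and 29.5% across the 3dpf list.

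Fold enrichment, the signal of a peak over its local background, gave the same order within a stage. The medians at 3dpf, 15dph and 23dph were 5.66, 4.16 and 4.12 in the regions without a 37dph peak. They were 6.51, 5.48 and 5.46 at the same 3 stages in the always-open regions. Each list has its own libraries, so folds of different stages are not on a common scale. By rank percentile, as given above, the groups lay closest in the 3dpf list.

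The 23dph peaks included many near the limit of the lists. An IDR of at most 0.01 was reached by 83.5% of the 3dpf peaks, 65.2% of the 15dph peaks and 43.9% of the 23dph peaks in regions without a 37dph peak. In always-open regions the shares were 92.1, 94.1 and 87.0%. At 23dph, 1271 regions without a 37dph peak (19.99%) had an IDR above 0.05, against 3.47% of the always-open regions. A core of 2060 regions (32.4%) had an IDR of at most 0.01 at all 3 stages, against 80.5% of the always-open regions, and 970 (15.3%) were in the top 50% of all 3 lists, against 63.6%.

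The share of regions that lacked a 37dph peak rose steeply with falling rank at 23dph and at 15dph, and less at 3dpf. In the strongest decile of the 23dph list it was 0.0209% (1 of 4774 regions), in the fifth decile 18.5% and in the weakest decile 50.4% (702 of 1392). In the 15dph list it was 0.539% in the strongest decile and 60.3% in the weakest. In the 3dpf list it was 7.80% (654 of 8387) in the strongest decile, 29.5% in the eighth and 25.8% in the weakest. The lowest share thus stood in the strongest decile of each list, and it was higher for the 3dpf list than for the lists of the later stages.

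The 654 regions in the top 10% of the 3dpf list had lower ranks later than always-open regions of the same 3dpf decile. Their median percentile was 35.2 at 15dph and 51.9 at 23dph, and 349 of them (53.4%, 49.5 to 57.2%) were in the lower 50% of the 23dph list. Of the 7733 always-open regions of that decile, 208 (2.69%) were in the lower 50% at 23dph, and their median percentile there was 9.29.

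Among regions with weak 23dph peaks, those that had been strong in the embryo more often lacked a 37dph peak. The lists were cut into quintiles (5 equal parts). In the weakest quintile of the 23dph list the share was 70.9% (66.3 to 75.1%, 290 of 409) for regions in the strongest quintile at 3dpf. It was 61.1, 47.7 and 42.7% in the next 3 quintiles and 38.4% (34.5 to 42.4%, 221 of 576) in the weakest quintile at 3dpf. The median 23dph percentile of the outer groups was 88.3 and 90.8. With quintiles cut by fold enrichment in place of −log10 p, the outer groups had shares of 66.1 and 36.1%. Their median 23dph percentiles by −log10 p were 89.2 and 85.6, the opposite order. Ranked by −log10 p, the shares had the same order in the fourth quintile of the 23dph list. They were 60.3% for the strongest and 27.9% for the weakest quintile at 3dpf. In the third quintile the shares were 31.3 and 18.2%. In the second quintile they were 9.40, 6.94, 6.14, 10.2 and 9.36% across the 3dpf quintiles and had no order. In the strongest quintile they were 0.651, 1.12, 2.07, 5.45 (3 of 55 regions) and 0% (0 of 17), with no clear order. The difference between the outer groups of the weakest 23dph quintile was 32.5 points. It was 50.4 points when all lists were limited to an IDR of at most 0.05. The quintiles were still those of the full lists, so that value covers only the regions the limit left in them. The 3dpf samples were complete animals and the later samples were not, so stage and sampled tissue cannot be told apart in this relation. Other measures moved with it. In the weakest 23dph quintile, the median 23dph peak width was 302 bp for the strongest and 176 bp for the weakest quintile at 3dpf, and the median distance to the next region open at the 3 earlier stages was 6120 and 3522 bp. Their part in the relation was not tested.

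**Figure D2:**
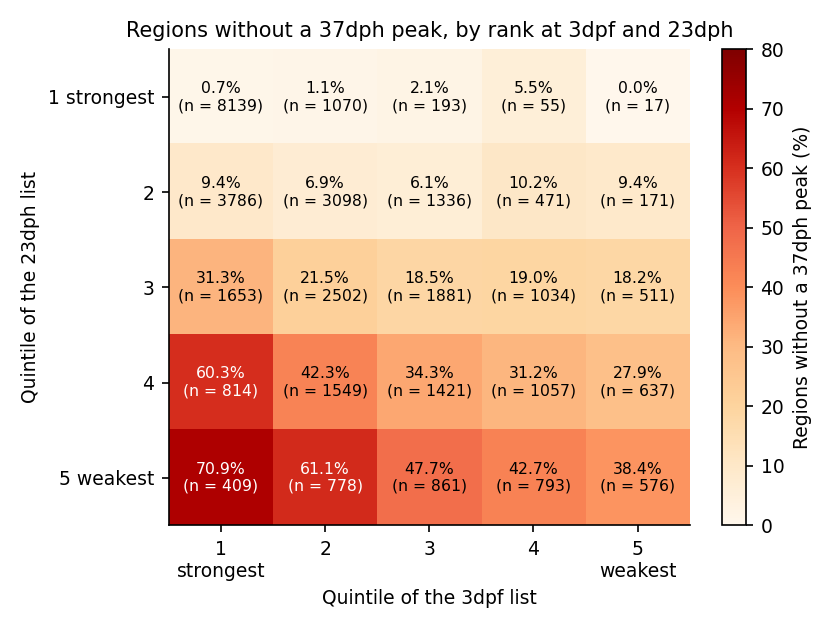
Percent of regions open at 3dpf, 15dph and 23dph that had no 37dph peak, by quintile of the 23dph list (rows, strongest at the top) and quintile of the 3dpf list (columns, strongest at the left), with the number of regions in each cell. In the lowest row the share falls from left to right, 70.9% for the strongest 3dpf peaks and 38.4% for the weakest.

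Regions without a 37dph peak had wider peaks than always-open regions of the same rank. Over all ranks their median peak widths were 309 bp (3dpf), 286 bp (15dph) and 258 bp (23dph), against 272, 260 and 239 bp in always-open regions. Strong peaks are wider, so the 2 groups were also set side by side within deciles of each list. In the fifth decile of the 23dph list the medians were 259 bp without and 208 bp with a 37dph peak, and in the weakest decile 255 and 173 bp. At 3dpf they were 279 and 216 bp in the fifth decile and 235 and 162 bp in the weakest. The regions without a 37dph peak were wider in every decile of the 3 lists except the strongest at 15dph (337 against 350 bp, 31 regions against 5721) and at 23dph (219 against 314 bp), which held 1 region without a 37dph peak. The median fold enrichment within these deciles was nearly equal, for example 4.87 and 4.88 in the fifth decile at 23dph. When all ranks were pooled, the share without a 37dph peak was highest in the fourth quintile of widths at each stage (23.7, 23.7 and 22.9%) and lower in the widest quintile (19.3, 18.1 and 19.2%). In the narrowest quintile it was 13.7, 16.8 and 17.6%, so the share did not rise evenly with width. The excess in width at the same rank was averaged over deciles with at least 20 regions of each group. It was 60.9 bp at 3dpf, 65.4 bp at 15dph and 53.3 bp at 23dph. With the top 50% of each list it was 22.2, 30.5 and 22.1 bp. Over all ranks of those shorter lists the difference was 2 bp at 3dpf and −1 bp at 15dph and at 23dph.

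**Figure D3:**
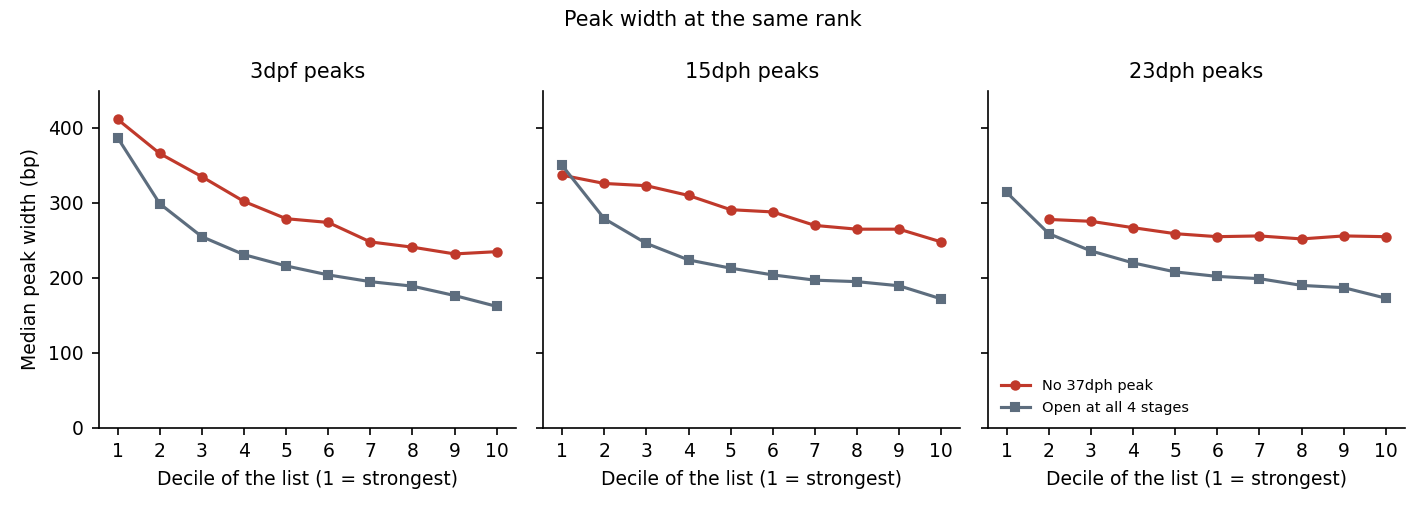
Median peak width in bp (vertical axis) in each decile of the 3dpf, 15dph and 23dph lists (horizontal axis, 1 is the strongest) for regions without a 37dph peak (red) and regions open at all 4 stages (grey); points with under 20 regions are not drawn. The red line lies above the grey one in all deciles drawn but the strongest at 15dph, and at 23dph it stays between 252 and 278 bp.

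The summits, the positions of highest signal, lay close together across the 3 stages. Peaks were joined into regions by their overlap, which in part keeps these distances short. In the regions with 1 peak at each stage, the median distance between summits was 16 bp between 3dpf and 15dph, 15 bp between 15dph and 23dph and 18 bp between 3dpf and 23dph. In always-open regions it was 9, 8 and 9 bp. Summits of 3dpf and 23dph lay within 100 bp of each other in 90.6% of the regions without a 37dph peak and in 96.5% of the always-open ones.

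The 10 strongest regions, by the mean of the 3 percentiles, lay on 9 chromosomes of the ASM1334776v1 assembly. The first, on chromosome 1 from 28791538 to 28792083, was at rank 314 of the 3dpf list with a fold enrichment of 12.05, at rank 1920 of the 15dph list with 8.13 and at rank 5565 of the 23dph list with 7.24. It held 2 peaks at each of these stages, and the nearest 37dph peak began 258 bp away. The second, on chromosome 16 from 5691357 to 5691736, had 1 peak per stage with folds of 11.5, 8.88 and 7.60, and its nearest 37dph peak was 2753 bp away. The third lay on chromosome 4 from 3094506 to 3094836, with folds of 10.4, 8.28 and 7.49, and had no 37dph peak within 52473 bp. Each of these 3 was among the strongest 1.31% of peaks at 3dpf and stood between percentiles 11.6 and 12.3 at 23dph.

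The other 7 were regions on chromosome 20 from 9182921 to 9183239, chromosome 11 from 1479863 to 1480284, chromosome 4 from 27579070 to 27579471, chromosome 7 from 4808653 to 4808954, chromosome 10 from 24312179 to 24312452, chromosome 9 from 21307961 to 21308789 and chromosome 6 from 6711985 to 6712390. Their 23dph folds were between 5.56 and 7.42. The regions on chromosomes 7 and 10 had a 37dph peak at only 42 and 68 bp, so a shift of peak borders by that distance would have changed their class. The region on chromosome 6 had a 37dph peak at 223 bp. The region on chromosome 9 was 829 bp wide in the 3dpf list, 481 bp in the 15dph list and 409 bp in the 23dph list, and its fold was 11.1, 7.32 and 5.56 at these stages.

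The widest regions were weak at 23dph. The widest, on chromosome 6 from 6079352 to 6080813, spanned 1462 bp, and its single peak was 1387 bp wide in the 3dpf list, 1072 bp in the 15dph list and 724 bp in the 23dph list. Its percentiles there were 13.9, 50.7 and 88.1. The third widest, on chromosome 11 from 2665989 to 2667381, kept nearly its whole width, with peaks of 1393, 1390 and 1244 bp at the 3 stages. The 5 widest regions were between percentiles 73.0 and 94.7 at 23dph.

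The rule turns on an overlap, and regions on both sides of that limit were looked at. The smallest gaps between a region without a 37dph peak and such a peak were 1, 3, 4, 4 and 17 bp. The shortest overlaps with a 37dph peak among always-open regions were 3, 65, 95, 101 and 102 bp. The region with the gap of 1 bp, on chromosome 4 from 14029059 to 14029257, had percentiles of 41.5, 85.7 and 43.3 at 3dpf, 15dph and 23dph. The region with the overlap of 3 bp, on chromosome 6 from 14944015 to 14944490, had percentiles of 49.98, 73.0 and 66.5 at these stages and 49.8 at 37dph.

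Gaps to the nearest 37dph peak were measured for these regions only, with no other group that lacks a 37dph peak beside them. A 37dph peak lay within 100 bp of 285 regions (4.48%), within 500 bp of 16.8% and within 1 kb of 24.3%. The median gap to the nearest 37dph peak was 3874 bp, with quartiles of 1067 and 9380 bp. It was 6579 bp when only 37dph peaks with an IDR of at most 0.01 were counted. No 37dph peak lay within 50 kb of 183 regions (2.88%). The furthest 5 were on 2 chromosomes. Of these, 3 lay on chromosome 13 from 21248317 to 21248608, from 21960940 to 21961221 and from 21937258 to 21937655, and had no 37dph peak within 300688, 280923 and 257241 bp. The third was also strong, with percentiles of 5.05, 19.7 and 27.8 in the 3dpf, 15dph and 23dph lists. The other 2 lay on chromosome 18 from 3017729 to 3018582 and from 3033993 to 3034428, with gaps of 247995 and 232149 bp.

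Regions without a 37dph peak lay further from always-open chromatin than always-open regions lay from each other. The median gap to the nearest always-open region was 6304 bp for the regions without a 37dph peak and 3389 bp for the always-open ones. Within 10 kb, 63.9% (62.7 to 65.1%) of the regions without a 37dph peak had an always-open region, against 79.2% (78.7 to 79.7%) of the always-open ones. The count of all other regions of the atlas within 50 kb had a median of 24 in both groups, and 9 and 11 of them were open at 37dph. Regions open at 3dpf only lay within 10 kb of 79.2% of the regions without a 37dph peak and of 73.8% of the always-open ones. Regions open only at 37dph were within 10 kb of 19.7%, against 23.4%. The shares for different kinds of neighbour also depend on how many regions of each kind the atlas holds.

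The 37dph state of a region went with that of its neighbours. For each of the 34812 regions open at the 3 earlier stages, the next such region on either side was looked up. Each adjacent pair thus entered from both sides, and the intervals do not allow for that. The neighbour had no 37dph peak in 24.5% (23.7 to 25.2%) of cases beside a region without a 37dph peak and in 16.9% (16.6 to 17.2%) beside an always-open region. The difference was present at each distance examined, with 17.8 against 12.01% for gaps of up to 1 kb, 24.8 against 17.6% for 10 to 20 kb and 34.6 against 31.0% for more than 50 kb, where the intervals overlapped (32.1 to 37.3% and 29.2 to 32.7%). The difference of 7.60 points over all gaps was 3.39 points with an IDR of at most 0.01 at the earlier stages, 4.47 points with the top 50% of each list and 4.97 points with an IDR of at most 0.01 in all lists. The same neighbourhood in plain distance did not separate the groups, since 24.96% of the regions without a 37dph peak and 24.3% of the always-open ones had a region without a 37dph peak within 10 kb.

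The more isolated a region was, the more often it lacked a 37dph peak. The share was 13.2% (12.6 to 13.8%) where the next region open at the 3 earlier stages was within 1 kb, 16.95% at 1 to 5 kb, 19.8% at 5 to 10 kb, 24.1% at 10 to 20 kb, 33.2% at 20 to 50 kb and 47.7% (42.6 to 52.8%, 175 of 367) beyond 50 kb. Isolated regions were also weaker, with a median 23dph percentile of 34.2 within 1 kb and 56.6 beyond 50 kb. Within the weakest quintile of the 23dph list the shares were 40.4% within 1 kb, 52.4% at 1 to 20 kb and 69.5% beyond 20 kb. In the third quintile they were 17.5, 23.2 and 36.5%, and in the strongest quintile 0.633, 0.763 and 1.92%. The order was thus the same at a like rank, although the intervals overlapped in the strongest quintile.

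**Figure D4:**
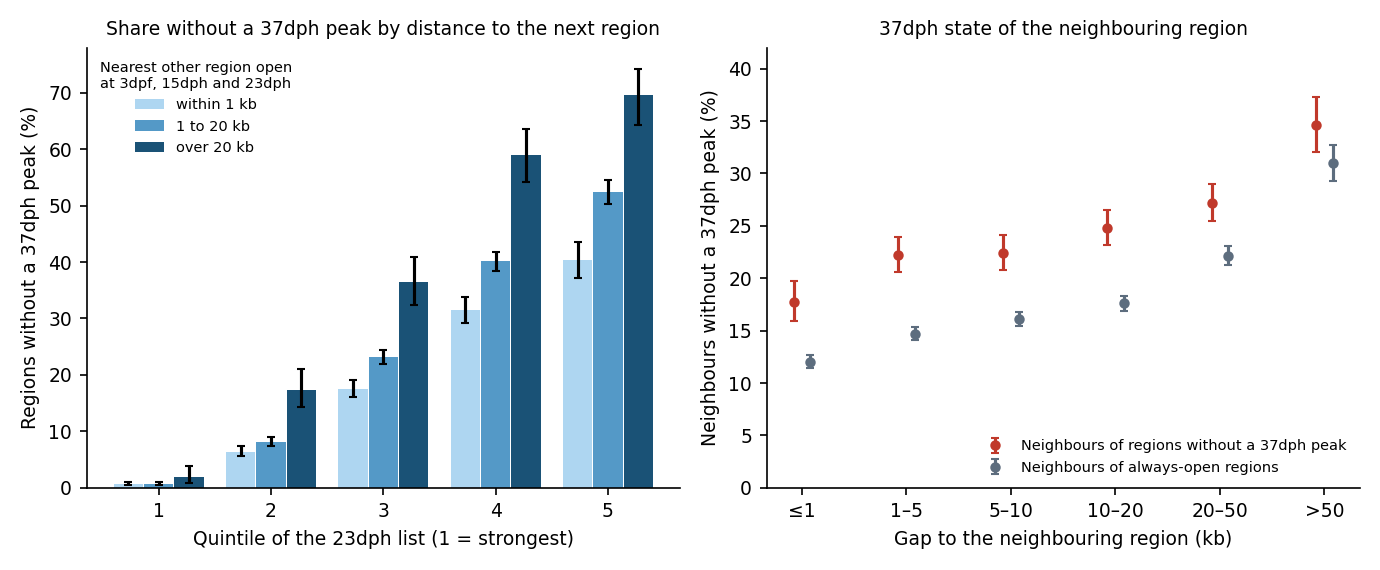
Left, percent of regions without a 37dph peak in each quintile of the 23dph list, by distance to the next region open at 3dpf, 15dph and 23dph (light, within 1 kb; middle, 1 to 20 kb; dark, over 20 kb). Right, percent of neighbouring regions without a 37dph peak, by gap in kb, beside regions without a 37dph peak (red) and beside always-open regions (grey). Whiskers show 95% Wilson intervals, and in each quintile the dark bar is the highest (69.5% in the weakest).

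Most of the regions stood alone, and 1587 were in runs. With the next one within 10 kb as the criterion, 4771 regions had no partner, 616 runs held 2 and 92 held 3. The longest such runs, 3 in number, had 5 regions each. They lay on chromosome 19 from 6166033 to 6182731, on chromosome 22 from 13390209 to 13411192 and on chromosome 3 from 23846007 to 23870352. No region of any kind was open at 37dph in the stretches on chromosomes 19 (16.7 kb) and 22 (21.0 kb), and 1 was in that on chromosome 3 (24.3 kb). These stretches held 6, 9 and 11 regions in all. In each, 5 lack a 37dph peak by the rule, so few regions open at 37dph follow in part from the choice. The 5 regions on chromosome 22 had percentiles between 45.0 and 91.2 at 23dph and between 11.9 and 73.5 at 3dpf. On chromosome 3 their percentiles were between 32.7 and 56.4 at 23dph and between 3.47 and 71.2 at 3dpf. On chromosome 19 they were between 29.4 and 86.1 at 23dph and between 9.30 and 75.3 at 3dpf. There, 2 of the 5 regions, from 6182030 to 6182500 and from 6182520 to 6182731, lay almost side by side. They would form 1 region if peaks within 500 bp were joined.

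The run on chromosome 22 was part of a longer stretch. When runs were counted as regions with no always-open region between them, a criterion chosen after the values were seen, the longest held 9 regions each. The first spanned 469 kb of chromosome 22 from 13112024 to 13580827 and the other 434 kb of chromosome 5 from 24016141 to 24449742. Of the 49 regions of any kind in the chromosome 22 stretch, 45 were open at 3dpf, 20 at 15dph, then 10 at 23dph and 2 at 37dph. Of the 49 in the chromosome 5 stretch, 47 were open at 3dpf, 18 at 15dph, then 9 at 23dph and 1 at 37dph. Such stretches were chosen to hold no always-open region, so few regions open at 37dph follow in part from the choice. Over the atlas of 114193 regions, 93637 were open at 3dpf, 56299 at 15dph, then 46194 at 23dph and 44042 at 37dph. Regions open at 3dpf only numbered 28 and 30 in the 2 stretches. The 9 regions on chromosome 5 had percentiles between 41.5 and 98.6 at 23dph and between 7.43 and 78.8 at 3dpf.

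The regions were spread over all 22 numbered chromosomes. The share of regions open at the 3 earlier stages without a 37dph peak was highest on chromosome 5 at 23.3% (21.3 to 25.3%, 403 of 1733) and lowest on chromosome 19 at 14.1% (12.5 to 15.9%, 231 of 1640), around a median of 18.4%. The Wilson interval lay above the share over all sequences on 2 chromosomes and below it on 3. The median 23dph percentile of all the regions compared was 40.0 on chromosome 5 and 34.9 on chromosome 19, so the chromosome with the higher share also had the weaker peaks, whose part in the difference was not tested. In 512 windows of 1 Mb with at least 30 such regions, the share had a median of 18.0%. The extremes were 3.26% (1.12 to 9.15%, 3 of 92) and 45.9% (31.0 to 61.6%, 17 of 37). They are the outermost of many windows with small counts.

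**Figure D5:**
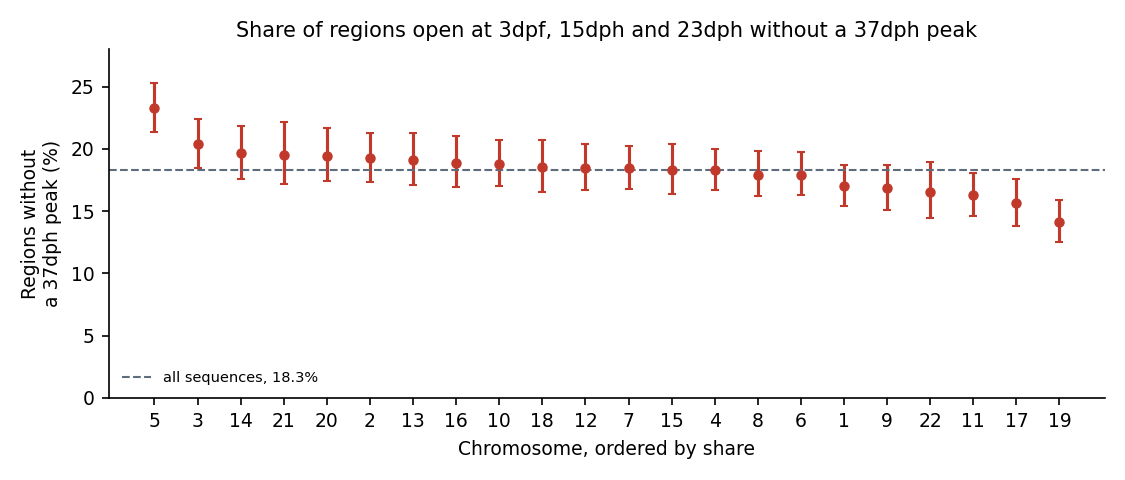
Percent of regions open at 3dpf, 15dph and 23dph without a 37dph peak (vertical axis) on each numbered chromosome, ordered by share, with 95% Wilson intervals. The dashed line is the share over all sequences (18.3%), and chromosome 5 at 23.3% and chromosome 19 at 14.1% are the extremes.

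Compared with regions that had dropped out 1 stage earlier, the regions last open at 23dph stood higher in the shared lists. Their median percentile was 35.2 at 3dpf and 56.1 at 15dph, against 47.8 and 76.7 in the 7422 regions open at 3dpf and 15dph only. The rule required a 23dph peak in the first group and none in the second, so these values are given as a description. Median peak widths at 3dpf were 309 bp in the regions last open at 23dph and 308 bp in those last open at 15dph, and at 15dph they were 286 and 267 bp. The regions last open at 23dph were wider than the 2780 that lacked only the 23dph peak, with medians of 309 bp at 3dpf and 286 bp at 15dph, against 217 and 201 bp. The median percentile at 3dpf was 35.2 in the regions last open at 23dph and 57.7 in those that lacked only the 23dph peak. At 15dph it was 56.1 and 65.8. The widths in this comparison were not matched by rank.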

How the data were processed

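Chromatin accessibility was measured in 8 samples, 2 at each of 4 stages. The authors mapped the read pairs to ASM1334776v1 with Bowtie2 and kept nucleosome-free fragments. They ran MACS2 per replicate and used IDR to make 1 consensus list per stage. The deposited lists give for each peak a fold enrichment (a ratio to the local background), a −log10 p and q, a score made from the IDR, and the −log10 of the IDR. The IDR used here is the global one. The peak positions and summits are deposited in bp. Whether fold enrichment and −log10 p come from pooled or single replicates is not given in the sources used here. Read depth is not analysed here and bears on which peaks pass the IDR limit.

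Peaks of the 4 lists that overlapped by at least 1 bp were joined into regions. Where a region held several peaks of a stage, the strongest was used. Ranks were taken within a list by −log10 p. Gaps were measured between region borders, and shares carry 95% Wilson intervals. No test was made. Joining and gaps were tested on simulated data of 525 peaks, and 5 of 5 checks matched a direct count. The software was Python 3.11.15 with pandas 2.3.3, numpy 2.4.6, matplotlib 3.10.9 and scipy 1.17.1. Named were the 10 strongest regions by mean percentile, the 5 widest, the 5 furthest from a 37dph peak, the chromosomes with the extreme shares, the longest runs, and the 5 regions on each side of the overlap limit. The regions, lists and rules were chosen with earlier results of these data known. Other IDR limits, list lengths, overlap rules and distances were tried. The gene table used here is of another assembly than the peaks, so genes and sequence were not analysed here.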

Additional observations from a re-analysis of the deposited data

How the results depend on the processing

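No paired analysis was possible because each stage has a single list for its 2 replicates, so that no replicate could be left out either. The number of regions without a 37dph peak, 6358 as reported, was 3714 with the top 50% of each list, 3780 with lists of equal length, 2065 with an IDR of at most 0.01 at the 3 earlier stages only and 10527 with that limit at 37dph only. It was between 4242 and 6739 with the other limits and overlap rules. With the top 50% of each list, only 26.1% of the regions found overlapped one of the 6358. With an IDR of at most 0.01 in all lists, 48.7% did.

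The share without a 37dph peak (18.3%) was 16.98% with an IDR of at most 0.01 in all lists, 17.5% with 0.05, 19.5% with the top 50%, 14.6% with lists of equal length, 8.27% with the limit of 0.01 at the earlier stages only, 30.2% with it at 37dph only, 20.6% with an overlap of 50% or more of both peaks and 17.4% when peaks within 500 bp were joined. Within the weakest 23dph quintile, the share in the strongest 3dpf quintile was higher than that in the weakest by 32.5 points as reported, by 50.4 points with an IDR of at most 0.05 and by 26.4 points with the joining at 500 bp. Ranked by fold enrichment, an alternative chosen after seeing the data, it was 30.02 points. In every alternative the quintiles were those of the full lists, so a stricter limit leaves only a part of the weak ones. With 4 of the alternatives, all limits on IDR or list length, too few regions were left for a value. The top 50% of each list excludes the weakest quintiles by definition. The relation was thus not checked in those lists.

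The neighbour of a region without a 37dph peak lacked that peak more often by 7.60 points as reported. This was 4.97 points with an IDR of at most 0.01, 6.68 with 0.05, 4.47 with the top 50%, 6.40 with lists of equal length, 3.39 with the limit of 0.01 at the earlier stages only, 9.51 with it at 37dph only, 6.07 with the 50% overlap, 6.63 with summits within 100 bp and 8.90 with the joining at 500 bp. It was positive in every alternative run, none of which matched neighbours by rank. The excess in peak width over always-open regions, 26 bp at 15dph and 19 bp at 23dph, was −1 bp at both stages with the top 50% of each list, and 2 bp in place of 37 bp at 3dpf. At 3dpf, 15dph and 23dph it was 59, 55 and 46 bp with the 50% overlap, and at 23dph 11 bp with lists of equal length. As a mean over quintiles of fold enrichment it was 58.9, 57.4 and 39.4 bp, and over deciles of rank 60.9, 65.4 and 53.3 bp, both chosen after seeing the data. The share of regions further down the 23dph than the 3dpf list depended on counting in percent of the list or in peaks from its top, also chosen after seeing the data (83.0 and 44.9% without a 37dph peak, 65.7 and 28.4% for always-open regions). The lists differ in length, which sets the last change. The causes of the others were not tested. Alternatives on gene starts, GC content and motifs were not run, as no genome or annotation of the assembly of the peaks was used here.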
